A study of Mus musculus with 6 samples.

Results

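Voltage-gated and related ion channel genes were followed in mouse hearts at E16.5, in dissected epicardium with its subepicardium, with and without Meis1 and Meis2. The epicardium is the outer cell layer of the heart, and the subepicardium is the tissue below it, next to the heart muscle. Members were all genes of the deposited table whose symbol begins with Kcn (potassium), Scn (sodium), Cacn (calcium) or Hcn (pacemaker) in the forms used for channel subunits. Kcnj8, which the rule leaves out, is given only among the partner genes. The rule found 68 of the 14549 genes in the table, of which 67 encode channel subunits. The other is Kcnq1ot1, a non-coding antisense RNA from the Kcnq1 gene, and it is counted apart.

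The 3 control pools (control 1, 2 and 4) are labelled wild-type. The 3 dKO pools (dKO 1, 2 and 3) carried conditional alleles of Meis1 and of Meis2, written Meis1fl/fl;Meis2fl/fl, together with WT1-Cre. WT1-Cre is a recombinase driven from the gene of an epicardial transcription factor, so deletion is limited to cells with a history of its activity. For control embryos, the sources used here do not say whether floxed alleles or Cre were present. Every pool joined tissue from 2 hearts of 1 genotype, and polyadenylated RNA was sequenced. Recovered read totals ran from 13146322 to 20635676 per library.

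Ion channels let potassium, sodium or calcium cross the cell membrane. In heart muscle, an inward sodium current starts the action potential, a calcium current sustains it and couples it to contraction, and several potassium currents end it. Pore subunits form the channel itself, while auxiliary subunits change its opening, its speed or how much of it reaches the membrane. Smooth muscle, pericytes, nerve cells, glia and non-excitable cells use other members of the same families.

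Levels are the deposited normalised counts, close to reads per 1e6. Every log2 change is dKO minus control on log2 of the value plus 1, which understates changes of genes with low values. A gene was called changed at a limma p-value, adjusted over all 14549 genes, below 0.05. Libraries are pools, so the spread between single hearts was not measured. In bulk RNA, fewer cells of a type and less RNA per cell cannot be told apart.

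The targeted genes and the tissue markers were read first. Meis2 was 86.1, 85.6 and 63.3 in controls 1, 2 and 4 and 44.5, 34.8 and 44.5 in dKO 1, 2 and 3 (log2 change -0.904, limma adjusted p = 0.00352). Meis1 did not pass (log2 change -0.20, limma adjusted p = 0.521), and neither value isolates the deleted part of the gene. In exact permutation tests over the libraries, p was 0.1 for Meis2, the smallest that 3 against 3 libraries can give, and 0.7 for Meis1. Of 17 epicardial and mesothelial markers, 16 were lower in the dKO pools, and their summed level was 2960 to 4448 in the controls and 567 to 708 in the dKO pools. Of 22 cardiomyocyte markers, 20 were higher, with sums of 6377 to 14332 in the controls and 33446 to 36005 in the dKO pools. Of 12 mural markers (smooth muscle and pericyte), 8 were higher, with sums of 899 to 1456 and 2578 to 2781. Of 11 fibroblast markers, 10 were lower, with sums of 29370 to 33162 and 12135 to 15669. All 4 lists were thus apart between the genotypes in every library. Endothelial markers were not: 1 of 10 was lower, with sums of 1122 to 1709 in the controls and 1347 to 1510 in the dKO pools. Of 6 measured skeletal muscle markers, 2 were higher and 1 was lower, with sums of 54.8 to 120 and 215 to 284. The part of these markers in the channel results was not tested on its own. A fit with the cardiomyocyte markers is given further on.

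Of 25 measured channel genes of the heart muscle action potential and pacemaking, 16 rose in the dKO pools. Among those that passed were the L-type calcium pore Cacna1c, the slow potassium channel partner Kcne1 and the inward rectifier Kcnj2. A second set was lower, including the small-conductance potassium channel Kcnn3, the sodium pores Scn3a and Scn2a, and the two-pore-domain genes Kcnk5, Kcnk6 and Kcnk1. Of the 67 channel genes, 32 (47.8%) changed, against 22.0% of all genes. In the dKO pools 19 (28.4%) were higher, against 9.81% of all genes, and 13 (19.4%) were lower, against 12.2%. The median log2 change was 0.08 for the channel genes and 0.00164 for all genes.

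The groups did not overlap for 25 channel genes with the dKO pools higher (37.3%, against 19.3% of all genes) and for 16 with the dKO pools lower (23.9%, against 21.1%). All 32 changed genes were among these 41. Every gene of the table reached a value of 1 in 3 or more libraries (the filter). For Scn2a, Kcnab1, Kcnb2 and Kcna2 only the 3 controls reached 1, and for Kcnj4 only the 3 dKO pools. Their groups could therefore not overlap, and that separation lends no support to a change. Changes of at least 1 on this log2 scale made up 16 of the 19 rises and 12 of the 13 falls. Control 1 was the lowest control for 16 of the 19 genes that rose and the highest control for 6 of the 13 that fell. Without dKO 2 the count of changed channel genes was 20, with 11 higher and 9 lower, and all genes called numbered 2221 instead of 3205.

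**Figure D1:**
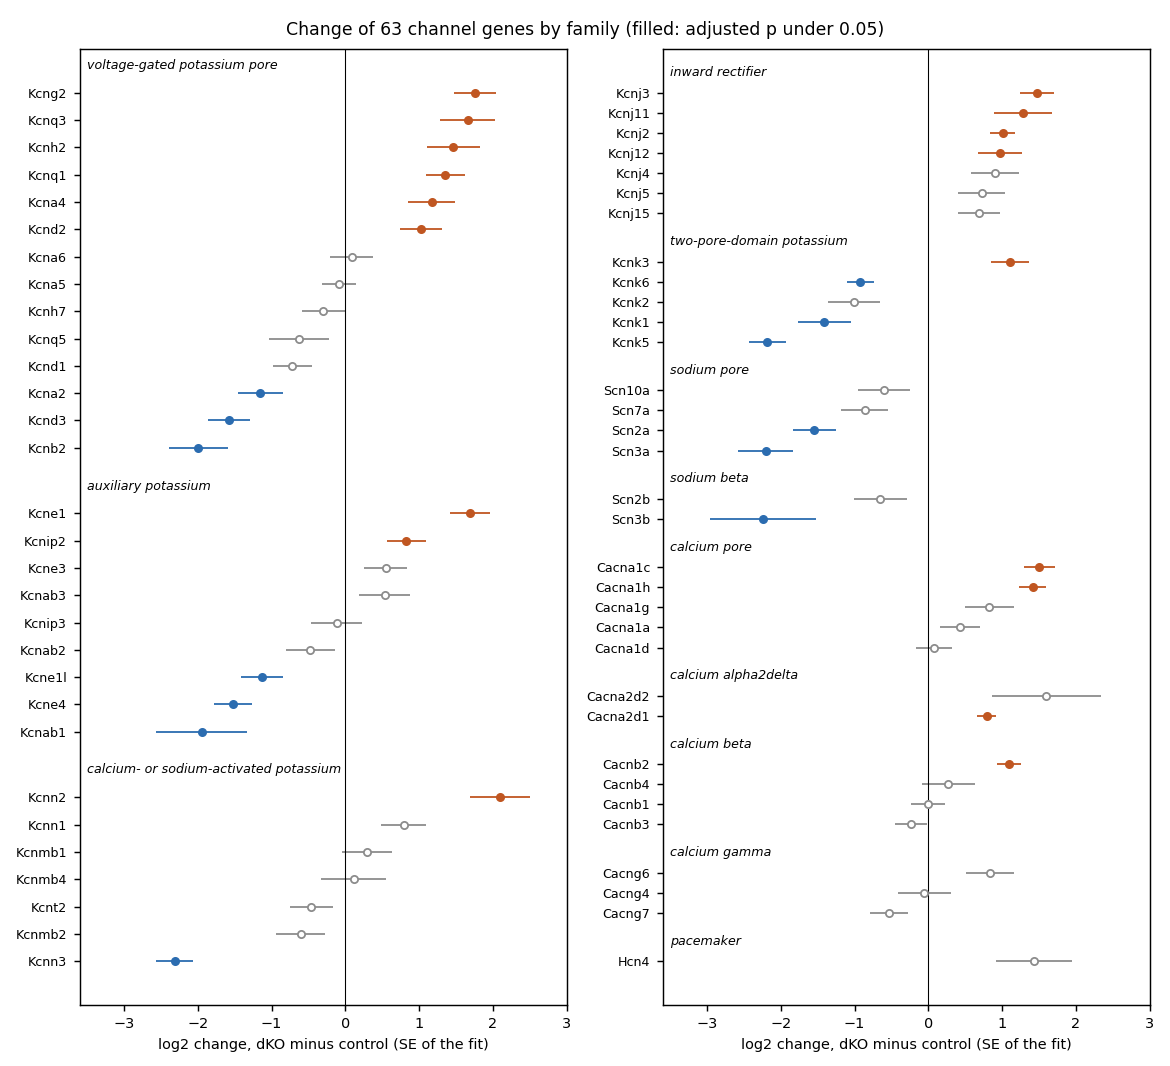
Log2 change (dKO minus control, horizontal axis, bars show the SE of the fit) of 63 of the 67 channel genes, grouped by family. Filled points passed the adjusted p threshold of 0.05, orange for 18 higher and blue for 13 lower in the dKO pools, and open grey points did not pass. Pore subunits of 1 family lie on both sides of 0, as with Kcnn2 (2.099) and Kcnn3 (-2.32).

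Genes with a textbook role in the cardiac action potential or in pacemaking were listed apart: 25 of 28 were measured, and 16 rose, 1 fell and 8 did not pass. Their median log2 change was 1.09. Of the 23 genes listed as neuronal or glial, 11 were measured, and 4 fell, 1 rose and 6 did not pass, with a median of -0.86. Of 27 channel genes in none of the use lists, 2 rose (Kcnn2 and Kcng2) and 7 fell, with a median of -0.24. Of the smooth muscle and pericyte list 4 of 5 were measured; Kcnj11 rose, Kcne4 fell, and the other two, Kcnmb1 (0.296) among them, did not pass. The only measured gene of the skeletal muscle list, Cacnb1, did not pass (-0.01). Against 9.81% of all genes higher and 12.2% lower, the shares were 64.0% higher and 4% lower in the cardiac list. They were 9.09% and 36.4% in the neuronal and glial list, and 7.41% and 25.9% among the genes in none of the lists. The lists were chosen with earlier results of these data known, so the shares are a description only. They were not tested against one another.

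**Figure D2:**
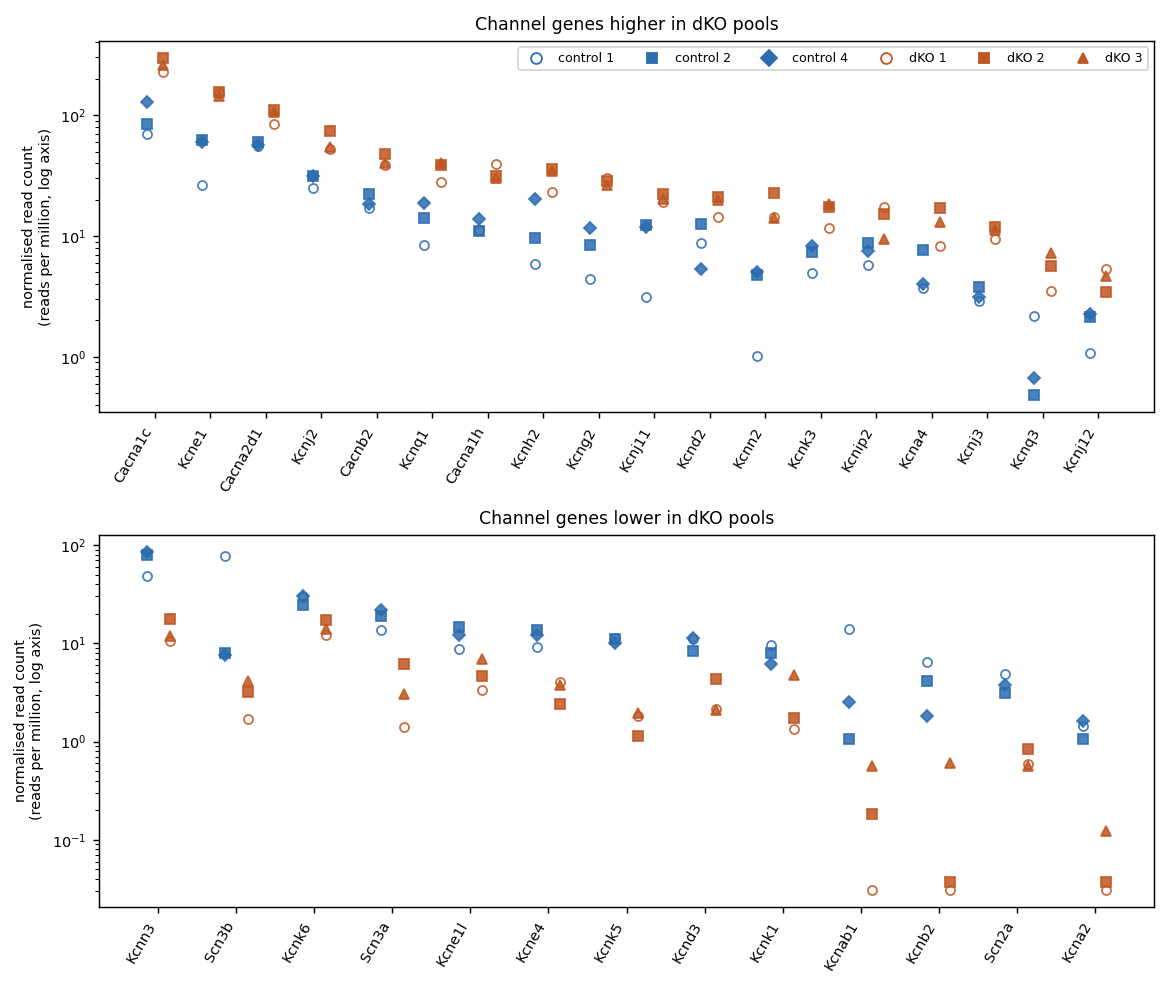
Normalised read count (log axis) of 18 of the 19 genes that rose and of all 13 that fell, in each library, with control pools in blue, dKO pools in orange and 1 symbol per pool. In the upper panel every dKO pool lies above every control pool, and in the lower panel every dKO pool lies below; control 1 stands apart for Scn3b (77.96) and Kcnab1 (14.1).

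Meis proteins bind DNA at sites that contain the letters TGACAG, so promoters of the members were searched for TGACAG and its reverse complement CTGTCA, so that both strands were covered. RefSeq promoter sequences (GRCm38.p6, 250 bases before to 50 after the start site) were found for 47 of the 68 members, with 68 promoters. The letters occurred in 12 of the 68 (17.6%), against 19.2% of all 32851 promoters of that length. They were in 4 of 13 promoters of members that rose, 4 of 12 of members that fell and 4 of 43 of the rest. These promoters belong to 10, 9 and 28 genes, and Kcnab1 gave more than 1 of the matches among members that fell. The 250 bases before the start site are shown for the calcium pore Cacna1c, the potassium pore Kcna4 and the potassium accessory subunit Kcnip2, which rose, and for Scn2a and Kcnn3, which fell. Capitals mark the letters searched, which the Kcnn3 sequence lacks. The other sequences shown were taken from promoters with a match, and a match is a description of the letters only.
Cacna1c, chr6:119196410-119196659, strand -: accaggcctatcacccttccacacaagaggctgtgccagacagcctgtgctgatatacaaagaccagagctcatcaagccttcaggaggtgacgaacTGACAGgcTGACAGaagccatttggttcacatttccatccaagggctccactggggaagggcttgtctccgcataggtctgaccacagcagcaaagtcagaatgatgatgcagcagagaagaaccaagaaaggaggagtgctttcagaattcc
Kcna4, chr2:107290339-107290588, strand +: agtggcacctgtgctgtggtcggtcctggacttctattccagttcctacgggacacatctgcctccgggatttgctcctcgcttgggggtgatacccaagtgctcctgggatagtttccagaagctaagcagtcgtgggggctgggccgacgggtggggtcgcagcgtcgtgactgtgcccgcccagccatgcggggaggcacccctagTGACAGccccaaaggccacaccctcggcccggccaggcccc
Kcnip2, chr19:45816064-45816313, strand -: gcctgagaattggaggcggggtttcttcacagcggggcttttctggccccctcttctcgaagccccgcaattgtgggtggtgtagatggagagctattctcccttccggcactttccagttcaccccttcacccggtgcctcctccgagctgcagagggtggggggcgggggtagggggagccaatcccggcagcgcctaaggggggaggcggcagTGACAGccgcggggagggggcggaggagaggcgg
Scn2a, chr2:65620519-65620768, strand +: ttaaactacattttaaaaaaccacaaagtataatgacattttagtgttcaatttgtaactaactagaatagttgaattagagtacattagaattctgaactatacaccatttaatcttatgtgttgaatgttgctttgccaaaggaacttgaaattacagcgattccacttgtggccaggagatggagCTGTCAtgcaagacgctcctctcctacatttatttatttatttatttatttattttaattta
Kcnn3, chr3:89519914-89520163, strand +: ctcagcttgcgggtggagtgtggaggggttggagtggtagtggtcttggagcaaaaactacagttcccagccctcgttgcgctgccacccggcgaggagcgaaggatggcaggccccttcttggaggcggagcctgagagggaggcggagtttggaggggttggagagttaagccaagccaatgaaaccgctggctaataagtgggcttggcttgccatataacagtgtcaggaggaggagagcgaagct

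Of 14 measured calcium channel genes, 4 rose (28.6%, against 9.81% of all genes), 10 did not pass and none fell (12.2% of all genes did). Among the 14, 4 had a negative log2 change. The summed level of the 14 was 256 to 311 in the controls and 533 to 594 in the dKO pools, with Cacna1c the largest part in both groups. Cacna1c (chromosome 6, 118587240 to 119196418) encodes the L-type pore that triggers contraction of heart muscle and also serves smooth muscle. It was 69.6, 84.7 and 129 across the controls and 227, 299 and 262 across the dKO pools. Its mean went from 94.6 ± 31.03 (SD, n = 3) to 263 ± 36.2 (SD, n = 3) (log2 change 1.504, SE 0.207, limma adjusted p = 0.000825). The lowest dKO pool lay above the highest control.

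Of the subunits that accompany the L-type pore, Cacnb2 and Cacna2d1 rose too. Cacnb2, the main beta subunit of heart muscle, was 16.9, 22.3 and 18.5 across the controls and 38.6, 47.7 and 39.9 across the dKO pools (log2 change 1.09, SE 0.165, limma adjusted p = 0.00137). Cacna2d1, an alpha2delta subunit that helps the pore reach the membrane, was 55.1, 59.7 and 56.7 across the controls and 84.3, 109.8 and 106 across the dKO pools (log2 change 0.79, SE 0.134, limma adjusted p = 0.00258). In both, every dKO pool lay above every control. Cacnb3, which is widely expressed, did not pass (22.2 to 18.3, log2 change -0.24), nor did Cacnb1 or Cacnb4 (0.27; 15.99% of its exonic bases are shared with another gene). Per kb of exon, Cacnb2 made up 12.3%, 22.6% and 17.5% of the beta subunit level for the controls and 28.8%, 36.7% and 35.6% for the dKO pools. Cacna2d2, the other measured alpha2delta gene, was 2.44, 1.95 and 0.413 across the controls and 29.8, 2.85 and 2.36 across the dKO pools. Its mean log2 change of 1.5998 did not pass (limma adjusted p = 0.153) and rested on dKO 1, since it was 0.57 without that pool.

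The T-type calcium pores, which open at low voltage and are prominent in embryonic heart and pacemaker tissue, are encoded by Cacna1g and Cacna1h. Cacna1h was 11.2, 11.01 and 13.8 across the controls and 39.4, 31.6 and 30.2 across the dKO pools (log2 change 1.41, SE 0.1802, limma adjusted p = 0.000536), and the groups were far apart. Cacna1g was 32.1, 11.5 and 13.7 across the controls and 39.8, 28.7 and 26.97 across the dKO pools, with control 1 inside the range of the dKO pools, and it did not pass (log2 change 0.83, limma adjusted p = 0.0997). Without control 1, Cacna1g passed with a log2 change of 1.26 (limma adjusted p = 0.00208). The L-type pore Cacna1d, used in pacemaking, was level (15.1 to 15.7, log2 change 0.07) and did not pass. The neuronal pore Cacna1a did not pass either (5.69 to 8.27, log2 change 0.43). Among gamma subunits and their relatives, Cacng6 (6.77 to 12.3, log2 change 0.84), Cacng7 (12.3 to 8.45, log2 change -0.54) and Cacng4 (-0.06) did not pass, although every dKO pool was above every control for Cacng6.

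Of 8 measured sodium channel genes, 1 rose (12.5%, against 9.81% of all genes), 3 fell (37.5%, against 12.2%) and 4 did not pass. Scn3a (chromosome 2, 65457118 to 65567627), a sodium pore of the embryonic nervous system, was 13.8, 18.99 and 22.0 across the controls and 1.399, 6.18 and 3.04 across the dKO pools (log2 change -2.204, SE 0.372, limma adjusted p = 0.00252). Its neighbour on chromosome 2, Scn2a, another neuronal sodium pore, was 4.85, 3.096 and 3.78 across the controls and 0.591, 0.851 and 0.5603 across the dKO pools (log2 change -1.55, SE 0.287, limma adjusted p = 0.00407). Both were below the lowest control in all 3 dKO pools. For Scn2a only the 3 controls reached a value of 1, so the filter fixed this in advance.

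Scn7a, an atypical sodium channel known from glia and other non-neuronal cells, did not pass and the groups overlapped (18.1 to 9.82, log2 change -0.86, limma adjusted p = 0.0816). It passed without dKO 1 (log2 change -1.14). Scn10a, known from sensory neurons, did not pass (2.702 to 1.31, log2 change -0.5998). Among the 5 measured sodium pores, Scn3a took 25.6%, 31.2% and 26.9% of the level per kb of exon for the controls and 3.57%, 12.3% and 7.33% for the dKO pools. The share of Scn7a was the largest of the 5 in every control and in dKO 1.

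Sodium beta subunits are single-pass membrane proteins that modulate the pore. Scn3b was 77.96, 8.07 and 7.59 across the controls and 1.71, 3.22 and 4.12 across the dKO pools (log2 change -2.24, SE 0.716, limma adjusted p = 0.0486), so control 1 was far above the other 2 controls. Without control 1 the log2 change was -1.19 (limma adjusted p = 0.0312), and the call was lost when any 1 dKO pool was left out. It was also lost with a pseudocount of 4 (limma adjusted p = 0.0736), with quantile normalization (0.0602) and without the variance trend (0.102), and DESeq2 gave no adjusted p. With the cardiomyocyte markers in the fit the direction turned (log2 change 2.44, limma adjusted p = 0.05303). Scn2b did not pass (5.73 to 3.21, log2 change -0.65).

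Of 6 measured neuronal markers (16 listed), 1 was higher and 2 were lower in the dKO pools, with sums of 45.6 to 52.8 in the controls and 39.4 to 53.4 in the dKO pools. Of 6 measured Schwann and glial markers (10 listed), 3 were lower (50%, against 12.2% of all genes), with sums of 382 to 427 and 124 to 146. In 1 of the 6 the log2 change was positive (1.08) and every dKO pool lay above every control, but it did not pass. None of the measured markers of either list was at 0 reads in all libraries of a group. Their part in the fall of Scn3a and Scn2a was not tested.

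Several genes of repolarising potassium currents rose. Kcne1 (chromosome 16, 92345982 to 92359468) encodes the small partner that slows the Kcnq1 channel and so forms the slow delayed rectifier current. It had the highest level per kb of exon of all 67 channel genes in both groups, at 15.4 and 47.2. It was 26.5, 62.7 and 59.6 across the controls and 154, 156 and 145 across the dKO pools, and its mean went from 49.6 ± 20.1 (SD, n = 3) to 152 ± 5.84 (SD, n = 3) (log2 change 1.69, SE 0.2701, limma adjusted p = 0.00186). The pore it joins, Kcnq1, was 8.43, 14.1 and 18.6 across the controls and 27.9, 38.4 and 39.97 across the dKO pools (log2 change 1.35, SE 0.265, limma adjusted p = 0.00537). Kcnh2, the pore of the rapid delayed rectifier, was 5.84, 9.61 and 20.1 across the controls and 23.3, 36.1 and 34.7 across the dKO pools (log2 change 1.46, SE 0.359, limma adjusted p = 0.0158). For all 3 genes control 1 was the lowest library. The call for Kcnh2 was lost without control 2, dKO 2 or dKO 3.

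The antisense RNA Kcnq1ot1, which silences imprinted neighbours of Kcnq1 on 1 parental chromosome, was 28.1, 19.1 and 28.1 across the controls and 33.8, 34.1 and 25.9 across the dKO pools and did not pass (log2 change 0.32, limma adjusted p = 0.279). It shares 2.96% of the exonic bases of Kcnq1, and the library kit is not stated to keep strand. Other members of the pore family that rose were Kcng2, Kcna4, Kcnd2 and Kcnq3. Kcng2, a silent subunit that works only with partner pores, was 4.42, 8.46 and 11.7 across the controls and 29.99, 28.4 and 26.6 across the dKO pools (log2 change 1.76, SE 0.284, limma adjusted p = 0.00196). Kcna4, of the slowly recovering transient outward current, went from 5.13 to 12.7 (log2 change 1.17, limma adjusted p = 0.0263). Its call was lost without control 1, control 4, dKO 2 or dKO 3. Kcnq3, best known for the neuronal M-current, was 2.19, 0.479 and 0.667 across the controls and 3.51, 5.66 and 7.28 across the dKO pools (log2 change 1.66, SE 0.372, limma adjusted p = 0.0104), and it was the only rise also called in the fit that includes the cardiomyocyte markers.

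The Kcnd genes encode the fast transient outward current and moved apart. Kcnd2 was 8.74, 12.5 and 5.37 across the controls and 14.4, 21.2 and 19.7 across the dKO pools (log2 change 1.03, SE 0.286, limma adjusted p = 0.02801), with a call that was lost without control 4, dKO 2 or dKO 3, and without the variance trend. Kcnd3 (chromosome 3, 105452330 to 105674002) was 10.96, 8.33 and 11.3 across the controls and 2.14, 4.33 and 2.12 across the dKO pools (log2 change -1.57, SE 0.287, limma adjusted p = 0.00368), and it was the single gene of the cardiac list that fell. Kcnd1 did not pass, although every dKO pool was below every control (6.78 to 3.82, log2 change -0.72, limma adjusted p = 0.0806). Of the Kcnd level per kb of exon, Kcnd2 held 41.5%, 53.2% and 29.3% for the controls and 71.8%, 81.7% and 78.5% for the dKO pools, while Kcnd3 held 28.0%, 18.98% and 33.3% and 5.75%, 8.97% and 4.54%. Kcnip2, the calcium-binding partner of Kcnd pores in heart muscle, went from 7.34 to 14.03 (log2 change 0.83, limma adjusted p = 0.04896). That call was close to the threshold and was lost when control 1, control 2, control 4, dKO 1 or dKO 2 was left out, and without the variance trend.

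**Figure D3:**
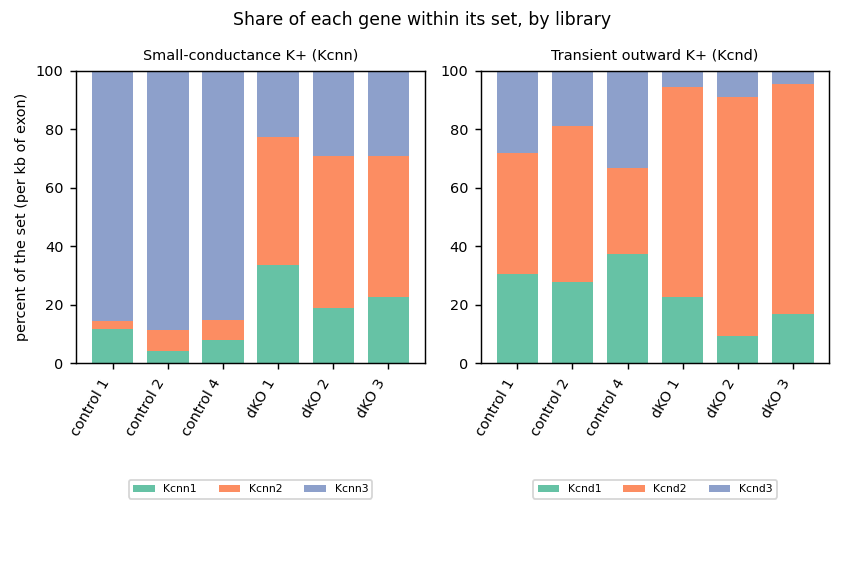
Share of each gene in its set (percent of the summed level per kb of exon, vertical axis) in each of the 6 libraries, for the Kcnn and Kcnd genes. Kcnn3 made up most of the Kcnn level in the controls (mean 86.4%) and 27.02% in the dKO pools, and Kcnd2 took 41.4% of the Kcnd level in the controls and 77.3% in the dKO pools.

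Kcnb2 and Kcna2, which encode delayed rectifier pores, fell from low levels. Kcnb2 was 6.45, 4.18 and 1.81 across the controls and 0.0311, 0.03699 and 0.609 across the dKO pools; the dKO values rest on 0, 0 and 12 reads (log2 change -1.99, limma adjusted p = 0.00609). Kcna2 was at 23, 16 and 25 reads across the controls and 0, 0 and 2 across the dKO pools, a ratio of 0.0297 with an exact (Clopper-Pearson) 95% interval of 0.00352 to 0.112 for counting error only. The Kcna2 call (limma adjusted p = 0.0224) was lost without control 1, control 4, dKO 2 or dKO 3. For Kcnb2 and Kcna2 only the controls reached a value of 1, so the filter fixed that the groups did not overlap. The interval for Kcna2 makes no allowance for that selection. Kcna5, the pore of an ultrarapid delayed rectifier, did not pass (20.8 to 19.1, log2 change -0.09). Kcna6 (0.08), Kcnh7 (-0.30) and Kcnq5 (-0.63) also did not pass. Another gene covers 39.6% of the exonic bases of Kcna6.

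Of 9 auxiliary potassium subunits, 2 were higher (22.2%, against 9.81% of all genes) and 3 lower (33.3%, against 12.2%). Besides the rises of Kcne1 and Kcnip2, Kcne4, whose protein damps several pores, was 9.11, 13.6 and 12.2 across the controls and 4.07, 2.404 and 3.73 across the dKO pools (log2 change -1.52, SE 0.262, limma adjusted p = 0.00275). Kcne1l, an X-linked member of the same small family, was 8.86, 14.6 and 12.2 across the controls and 3.33, 4.62 and 6.99 across the dKO pools (log2 change -1.13, SE 0.289, limma adjusted p = 0.0194), with a call lost without control 2, control 4, dKO 1 or dKO 2. Kcnab1, a cytoplasmic beta subunit, was 14.1, 1.05 and 2.51 across the controls and 0.0311, 0.185 and 0.5603 across the dKO pools, so control 1 again stood far above the other controls. Its log2 change of -1.95 (limma adjusted p = 0.0474) became -1.11 without control 1 and did not pass (limma adjusted p = 0.0811). That call was also lost without control 4 or any 1 dKO pool, with a pseudocount of 4, with quantile normalization and without the variance trend. Only the controls reached a value of 1 for Kcnab1, so the filter fixed that its groups did not overlap. With the cardiomyocyte markers in the fit its direction turned (log2 change 1.65, limma adjusted p = 0.436). Kcne3 (0.55), Kcnab2 (-0.47), Kcnab3 (0.53) and Kcnip3 (-0.12) did not pass.

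All 7 inward rectifiers had a positive log2 change, from 0.681 to 1.47. Of the 7, 4 rose (57.1%, against 9.81% of all genes). On the recovered reads edgeR called 2 of these 4, and DESeq2 called 5 of the 7. In the fit that includes the cardiomyocyte markers the direction was not uniform: Kcnj5 (-1.14), Kcnj11 (-1.003), Kcnj15 (-0.25) and Kcnj12 (-0.027997) were negative, and the lowest limma adjusted p of the 7 was 0.216. These channels hold the resting potential. Kcnj2, the main pore of the resting potassium current in ventricular muscle, was 25.1, 31.3 and 31.1 across the controls and 52.7, 73.3 and 54.1 across the dKO pools (log2 change 1.01, SE 0.167, limma adjusted p = 0.00231). Kcnj3, a pore opened by G proteins in the atrium, was 2.87, 3.798 and 3.14 across the controls and 9.48, 11.8 and 11.2 across the dKO pools (log2 change 1.47, SE 0.232, limma adjusted p = 0.00174), and 31.1% of its exonic bases are shared with Gm26794. In both genes the groups did not overlap.

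Kcnj5, which pairs with Kcnj3, was 14.8, 29.8 and 40.6 across the controls and 57.9, 36.4 and 40.2 across the dKO pools and did not pass (log2 change 0.72, limma adjusted p = 0.134). Its dKO 2 and dKO 3 values lay just below that of control 4. Kcnj11, the pore of the ATP-sensitive channel of ventricular muscle, was 3.12, 12.4 and 11.8 across the controls and 19.2, 22.4 and 20.2 across the dKO pools (log2 change 1.28, SE 0.394, limma adjusted p = 0.0422). Without control 1, its lowest library, the log2 change was 0.72. Its call was lost without any 1 dKO pool, without the variance trend and in edgeR (adjusted p = 0.0751). Kcnj12, a relative of Kcnj2, went from 1.82 to 4.51 (log2 change 0.98, limma adjusted p = 0.0414), a call that was lost when any 1 library was left out and in edgeR (adjusted p = 0.0709). Kcnj4 (0.901) and Kcnj15 (0.68) did not pass. Kcnj4 did with DESeq2 (adjusted p = 0.04597), with quantile normalization and without the variance trend. Only the 3 dKO pools reached a value of 1 for Kcnj4, so the filter fixed that its groups did not overlap.

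Two-pore-domain channels carry background potassium currents, and most of them were lower. Of 5 measured, 3 fell (60%, against 12.2% of all genes) and 1 rose (20%, against 9.81%). Kcnk2 did not pass (-1.005), and 12.2% of its exonic bases are shared. Kcnk5 (chromosome 14, 20140057 to 20181809), an acid-sensitive channel known from epithelia, was 11.5, 11.2 and 10.2 across the controls and 1.83, 1.15 and 1.97 across the dKO pools. Its mean went from 10.9 ± 0.669 (SD, n = 3) to 1.65 ± 0.442 (SD, n = 3) (log2 change -2.18, SE 0.251, limma adjusted p = 0.000285), and the 3 libraries of each group were close together. Kcnk6 was 29.9, 24.8 and 30.1 across the controls and 12.3, 17.1 and 14.1 across the dKO pools (log2 change -0.92, SE 0.182, limma adjusted p = 0.00557). Kcnk1, its relative, was 9.73, 8.01 and 6.19 across the controls and 1.34, 1.74 and 4.799 across the dKO pools (log2 change -1.41, SE 0.361, limma adjusted p = 0.0193), and its call was lost without control 1, control 2, dKO 1 or dKO 2. Kcnk3, an acid-sensitive channel of heart muscle and arterial smooth muscle, went the other way, 4.91, 7.31 and 8.29 across the controls and 11.7, 17.4 and 18.5 across the dKO pools (log2 change 1.11, SE 0.257, limma adjusted p = 0.0123), with a call lost without dKO 2 or dKO 3.

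Kcnn channels are opened by intracellular calcium and have a small conductance. Kcnn3 (chromosome 3, 89520164 to 89675132) had the largest fall of all 67 channel genes on this scale. It was 48.4, 80.1 and 85.2 across the controls and 10.6, 17.6 and 11.96 across the dKO pools, and its mean went from 71.3 ± 19.97 (SD, n = 3) to 13.4 ± 3.74 (SD, n = 3) (log2 change -2.32, SE 0.246, limma adjusted p = 0.000168), 18.8% of the control mean. Kcnn2 had the largest rise on the same scale, though edgeR gave a larger one for Kcnq3 (log2 change 2.33, against 2.25 for Kcnn2). Kcnn2 was 1.02, 4.75 and 5.05 across the controls and 14.5, 22.5 and 14.2 across the dKO pools (log2 change 2.099, SE 0.406, limma adjusted p = 0.00501), with control 1 the lowest. Kcnn1 did not pass (2.67 to 5.31, log2 change 0.79), although every dKO pool was above every control. Per kb of exon, Kcnn3 held 85.6%, 88.5% and 85.1% of the Kcnn level for the controls and 22.8%, 29.1% and 29.1% for the dKO pools. Kcnn2 held 2.52%, 7.35% and 7.05% and 43.5%, 52.1% and 48.4%, so Kcnn2 was the largest of the 3 in each dKO pool. The sodium-activated Kcnt2 (8.61 to 6.03, log2 change -0.46) and the beta subunits of the large-conductance channel, Kcnmb1 (0.296), Kcnmb2 (-0.604) and Kcnmb4 (0.11; 31.5% of its exonic bases shared), did not pass.

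Hcn4, the main pacemaker channel of the heart, was the only Hcn gene in the table. It was 0.463, 3.41 and 3.397 across the controls and 14.02, 6.99 and 3.58 across the dKO pools, and every dKO pool was above every control. It did not pass (log2 change 1.42, SE 0.514, limma adjusted p = 0.0744), but it did with DESeq2 on the recovered reads (log2 change 1.77, adjusted p = 0.0317) and without dKO 3 (limma adjusted p = 0.04304). The spread was wide in both groups: control 1 was well below the other 2 controls, and dKO 1 was well above dKO 3. With the cardiomyocyte markers in the fit, the direction of Hcn4 turned (log2 change -1.19, limma adjusted p = 0.623).

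Channel partners were read from a list of 40 scaffolds, regulators and accessory proteins, of which 33 were measured. Of these, 15 rose, 3 fell and 15 did not pass, with a median log2 change of 0.66. The share higher was 45.5%, against 9.81% of all genes, and the share lower was 9.09%, against 12.2%. With the cardiomyocyte markers in the limma fit, none of the 18 calls was kept, and 6 of the 33 had an unadjusted p below 0.05. Without the markers, edgeR and DESeq2 each called 15 higher and 3 lower. Abcc9 and Abcc8, sulfonylurea receptors that complete ATP-sensitive channels, went from 138 to 328, log2 change 1.24, and from 3.98 to 14.7, log2 change 1.73. Kcnj8, the pore that Abcc9 joins in pericytes and smooth muscle, went from 21.1 to 39.5, log2 change 0.86. Rrad, a small GTPase that restrains L-type calcium channels, was 12.3, 31.4 and 27.02 across the controls and 82.1, 76.2 and 76.6 across the dKO pools (log2 change 1.79, SE 0.279, limma adjusted p = 0.00166). Jph2, which holds the cell membrane close to the internal calcium store in heart muscle, rose by 1.74 on the log2 scale and the caveolar protein gene Cav3 by 1.53. Fgf13, whose intracellular protein binds sodium channels, went from 15.4 to 36.9 (1.22), and the anchoring protein genes Ank2 (0.51) and Ank3 (0.66) also rose. Among the 3 that fell were the scaffold genes Cask (-0.64) and Dlg1 (-0.54).

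The channel groups were set beside the cardiomyocyte markers in each library. The mean log2 value of these markers was 6.84, 7.95 and 7.97 for the controls and 9.42, 9.12 and 9.19 for the dKO pools. That of the 25 cardiac channel genes was 3.295, 3.69 and 3.76 for the controls and 4.496, 4.49 and 4.33 for the dKO pools. That of the 11 neuronal and glial channel genes was 3.08, 2.39 and 2.597 and 1.67, 2.08 and 1.91. Control 1, the control with the lowest cardiomyocyte markers, was lowest for the first group and highest for the second.

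With that marker mean (the cardiomyocyte score) added to the fit as a covariate, 3 of the 67 channel genes passed, against 1.93% of all genes. They were Kcnn3 (log2 change -3.21, limma adjusted p = 0.00597), Kcnq3 (3.31, limma adjusted p = 0.0397) and Cacna1g (2.47, limma adjusted p = 0.0348), the first 2 shared with the 32. In that fit Cacna1c had 0.79 (limma adjusted p = 0.452), Kcne1 0.04 (0.978) and Kcnn2 0.06 (0.986). The score did not overlap between the genotypes. Genotype and cardiomyocyte marker level therefore cannot be told apart for any of these genes, including the 3 that passed. Control 1, the library with the lowest score, was the highest control for Kcnq3 and Cacna1g and the lowest for Kcnn3.

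**Figure D4:**
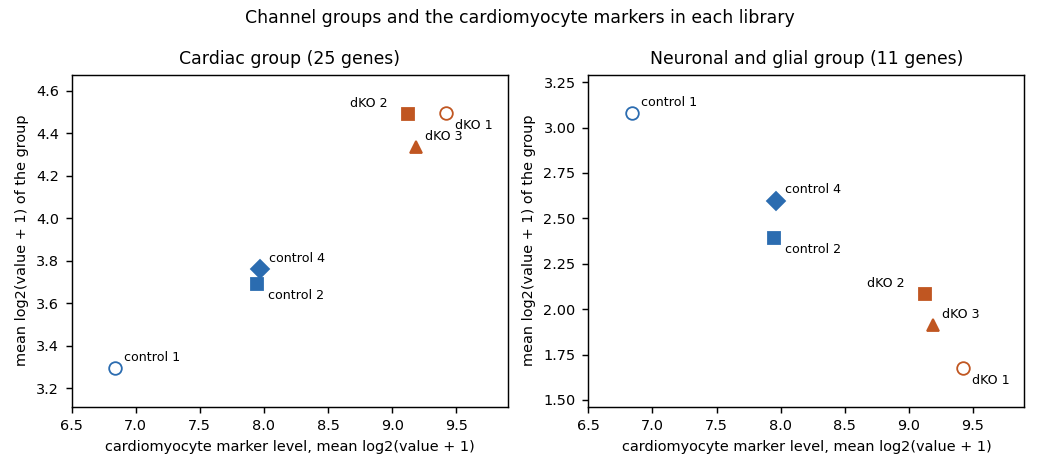
Mean log2(value + 1) of 25 cardiac channel genes (left) and 11 neuronal and glial channel genes (right) in each library, against the mean of 22 cardiomyocyte markers on the same scale. Control pools are blue and dKO pools orange; the cardiac group runs from 3.295 in control 1 to 4.496 in dKO 1, and the neuronal and glial group from 3.08 down to 1.67 in the same pools.

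Per kb of exon, the order of the channel genes differed between the groups. After Kcne1, the highest in the controls were Kcne1l (7.71), Kcna5 (7.27), Kcnn3 (6.82) and Kcnk6 (6.81), whose neighbours in this order differ by less than the spread between libraries. In the dKO pools they were Cacna1c (12.4), Kcnj2 (11.03), Kcnj5 (9.57) and Kcng2 (9.48), and Kcnn3 stood at 1.28. Lengths are all annotated exonic bases of a gene, so a gene with many alternative exons, such as Cacna1c, can be placed too low.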

How the data were processed

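Polyadenylated RNA of 3 control and 3 dKO pools was sequenced from 40 ng of total RNA each. The submitters' processing notes name cutadapt, RSEM 1.3.1 and GRCm38. Annotation release, scaling and gene filter were not given in the sources used here. What the authors deposited is a linear, normalised signal per gene. Each of the 87294 values (100%) came out, to within 0.01 reads, as a library constant times whole reads plus 0.5, and 1 read was worth 0.0487 to 0.07398, which sets the precision of low values.

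The filter asked for a value of 1 in 3 or more libraries, and all 14549 genes and 68 members passed it. Main test: limma 3.58.1 in R 4.3.3 with a variance trend on log2 of the value plus 1, two-sided, with Benjamini-Hochberg adjustment over all 14549 genes and no covariate. Functions were tested on simulated data. As alternatives, edgeR 4.0.16 (quasi-likelihood) called 2956 genes on the recovered reads and DESeq2 1.42.0 called 3621; other alternatives changed pseudocount, filter, scaling, variance trend, covariate or libraries.

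Genes described with values were the changed members with a group mean of at least 5 (up to 15 per direction by p), the 2 most abundant and the 2 with the smallest p of each family, the cardiac list, and those called against the direction of most called members of their family; members sharing over 10% of exonic bases are named with that share. Other members named were chosen after their values were seen. A few genes enter the counts but are not reported here. Members and lists were chosen with earlier results of these data known. Replicates are separate pools per the labels. Positions and exonic overlap are from GENCODE M21 (14535 of 14549 identifiers found); promoters are from RefSeq.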

Additional observations from a re-analysis of the deposited data

How the results depend on the processing

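Of the 32 changed channel genes, 19 (11 higher, 8 lower) kept their call under every alternative that tested them. The cardiomyocyte score and the replicate block are left out of that count. The filter at 5 did not test Scn2a, Kcnb2 and Kcnq3, which are among the 19. Of the 32, 13 lost their call when some library was left out. Leaving out 1 library at a time gave 20 to 27 changed channel genes (11 to 16 higher, 9 to 11 lower), 2167 to 2725 changed genes in all, 15 to 19 partner genes and 12 to 19 other ion channel genes. Adding the cardiomyocyte score to the fit gave counts of 3 (2 higher, 1 lower), 281, 0 (limma; 6 at an unadjusted p below 0.05) and 1. Among the 32 changed genes, the direction turned in that fit for Kcnab1 (1.65), Kcnj11 (-1.003), Kcnj12 (-0.027997) and Scn3b (2.44). The cause was not tested. Under pseudocounts of 0.5 and 4, a filter at 5, quantile or median-of-ratios scaling, no variance trend, edgeR and DESeq2, the count of changed channel genes was 26 to 33, and the filter at 5 tests fewer genes. Without control 1 and dKO 1 together it was 31. Numbers 1 and 2 occur in both groups, but same-numbered pools did not deviate together (r = -0.181 for number 1 and -0.204 for number 2, across genes). The pair control 4 and dKO 3, with different numbers, had -0.149, and the other pairs 0.0164 to 0.149. Deviations from a mean of 3 libraries are tied to each other, so these values cannot decide whether the numbers pair the pools. A replicate block over the 4 libraries numbered 1 and 2, with 1 residual degree of freedom, gave 18 changed channel genes (11 higher, 7 lower), 1371 in all, 11 partner genes and 4 other ion channel genes.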

Other observations

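Ion channels of other families were read from a list. Of 65 measured genes of the Trp, Ano, Clcn, Clic, Piezo, Orai, Stim, P2rx and related families, 7 rose, 14 fell and 44 did not pass, with a median log2 change of -0.24. The share higher was 10.8%, against 9.81% of all genes, and the share lower was 21.5%, against 12.2%. The groups did not overlap for 18 with the dKO pools higher (27.7%, against 19.3% of all genes) and for 20 with the dKO pools lower (30.8%, against 21.1%). The directions were not tested against each other. Leaving out control 1 took the count of changed genes from 21 to 13, and leaving out dKO 2 or dKO 3 took it to 12 in each case. Ano1, a calcium-activated chloride channel, was 107, 37.8 and 57.8 across the controls and 9.48, 16.46 and 11.7 across the dKO pools (log2 change -2.24, SE 0.331, limma adjusted p = 0.00121), with control 1 the highest. Ano5, a relative found on internal membranes, was 7.997, 16.2 and 16.2 across the controls and 1.52, 1.89 and 2.899 across the dKO pools (log2 change -2.18, SE 0.319, limma adjusted p = 0.00114), and it was the 1 gene of these families also called when the cardiomyocyte score was in the fit (log2 change -3.38, limma adjusted p = 0.0236). Every dKO pool was below every control for both. Stim1, the calcium sensor of the endoplasmic reticulum that opens store-operated channels, was 59.9, 60.6 and 67.02 across the controls and 29.6, 36.7 and 22.1 across the dKO pools (log2 change -1.09, SE 0.1805, limma adjusted p = 0.00229). The mechanically opened Piezo1 fell from 79.4 to 44.2 (log2 change -0.79, limma adjusted p = 0.0298), whereas Piezo2 did not pass (95.8 to 71.9, log2 change -0.403). Trpm5, a cation channel opened by calcium, fell from 21.2 to 6.71 (log2 change -1.62, limma adjusted p = 0.00501). Among those that rose were the chloride-channel-related Clic5 (33.9 to 63.7, log2 change 0.87) and Clic4 (347 to 469, log2 change 0.43) and the volume-regulated channel subunits Lrrc8d (0.65) and Lrrc8c (0.42). The epicardial markers described above were lower in the same pools; their part in these falls was not tested.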
